A study of Homo sapiens with 8 samples.

Results

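The deoxynucleotide supply enzymes described here are 9 protein-coding genes taken by name from the gene tables, RRM1, RRM2, TYMS, TK1, DUT, DTYMK, DCK, DCTD and SAMHD1, out of 58735 genes in all. Each symbol matched 1 protein-coding entry, and all 9 had enough reads to be tested. They were measured by sequencing polyadenylated RNA of PANC-1, an established human cell line from a pancreatic ductal adenocarcinoma. The siSCR group holds 4 libraries of cells transfected with a scrambled control siRNA, and the siBARD1 group holds 4 libraries of cells transfected with an siRNA against BARD1, the partner protein of BRCA1 in DNA repair. All cells were harvested after 48 h of transfection. Libraries carry the replicate numbers 1, 3, 4 and 5 in both groups. Whether the BARD1 siRNA was a single duplex or a pool is not stated, and untransfected cells were not analysed here. What this siRNA does besides lowering BARD1 cannot be told apart from the loss of BARD1. The labels do not state that replicates were separate cultures, and the p-values then measure only the spread between these libraries, which may be technical.

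Cells that copy their DNA need the 4 deoxynucleoside triphosphates in balanced supply. Ribonucleotide reductase makes deoxynucleotides from ribonucleotides, with RRM1 as its large catalytic subunit and RRM2 as the small subunit of proliferating cells. Thymidylate, the building block found in DNA but not in RNA, is made from deoxyuridylate by thymidylate synthase (TYMS), and deoxyuridylate comes from dCMP deaminase (DCTD) and from dUTPase (DUT). Thymidine kinase (TK1) and deoxycytidine kinase (DCK) recover nucleosides instead, thymidylate kinase (DTYMK) passes thymidylate from both routes on to thymidine diphosphate, and SAMHD1 breaks deoxynucleoside triphosphates down. Several of these genes are classical S-phase genes under E2F control, and in pancreatic cancer DCK is known as the kinase that activates gemcitabine.

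The stretches before the annotated starts of the 3 genes that fell most and of SAMHD1, the gene that rose, are shown as a description of sequence. These genes were picked by their fold changes. Each stretch holds the 250 bases before the most upstream RefSeq start of the gene, on GRCh38.p14 and on the gene's own strand. Capitals mark the motif letters found by an exact search on both strands: TTTGGCGC, TTTCCCGC, TTTGCCGC or TTTCGCGC for E2F, CCAAT for NF-Y, and TTTGAA or TTCGAA for the cell cycle homology region (CHR).
TYMS, chr18:657403-657652, plus strand: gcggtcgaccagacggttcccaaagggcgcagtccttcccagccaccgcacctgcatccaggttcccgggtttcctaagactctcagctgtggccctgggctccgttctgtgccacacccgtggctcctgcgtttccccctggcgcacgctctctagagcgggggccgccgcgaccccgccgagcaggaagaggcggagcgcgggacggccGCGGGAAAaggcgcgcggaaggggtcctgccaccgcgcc
RRM1, chr11:4094435-4094684, plus strand: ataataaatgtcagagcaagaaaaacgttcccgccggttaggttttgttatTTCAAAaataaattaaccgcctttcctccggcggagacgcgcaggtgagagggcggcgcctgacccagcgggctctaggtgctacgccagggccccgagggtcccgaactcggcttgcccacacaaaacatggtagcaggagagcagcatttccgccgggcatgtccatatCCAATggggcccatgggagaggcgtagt
RRM2, chr2:10122318-10122567, plus strand: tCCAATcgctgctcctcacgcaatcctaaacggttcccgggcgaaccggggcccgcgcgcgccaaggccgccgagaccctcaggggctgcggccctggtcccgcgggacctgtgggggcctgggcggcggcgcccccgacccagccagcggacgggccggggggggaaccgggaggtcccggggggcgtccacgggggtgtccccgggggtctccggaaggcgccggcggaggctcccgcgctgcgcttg
SAMHD1, chr20:36951709-36951958, minus strand: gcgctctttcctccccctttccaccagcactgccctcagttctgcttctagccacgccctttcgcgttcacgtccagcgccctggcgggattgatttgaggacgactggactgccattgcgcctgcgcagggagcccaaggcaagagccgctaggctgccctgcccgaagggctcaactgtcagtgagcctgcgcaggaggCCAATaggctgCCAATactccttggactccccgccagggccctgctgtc
TYMS had an E2F match on the reverse strand 39 bases before the start and no CCAAT. RRM1 had CCAAT 28 bases and a CHR match 199 bases before the start. RRM2 had only a CCAAT, 249 bases before the start. SAMHD1 had CCAAT 49 and 38 bases before its start. No match overlapped another. The gene extents in the deposited tables come from GENCODE and differ from the RefSeq starts: the RRM2 stretch lies wholly inside the extent given for RRM2, those of TYMS and SAMHD1 lie partly inside theirs, and that of RRM1 lies before its gene.

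All 9 genes matched a RefSeq window, and the search ran over the full windows, from 250 bases before to 50 bases after the start. An E2F match lay in 2 of 9 windows, those of TYMS and of DCK, where it lay after the start, and in 5.41% of 10087 windows of protein-coding genes tested here. CCAAT lay in 4 of 9 windows, of RRM1, RRM2, DTYMK and SAMHD1, beside 36.5% of those windows. A CHR match lay in 2 of 9, of RRM1 and DTYMK, beside 10.8%. TK1, DUT and DCTD had none of these letters in their windows. The matches describe sequence only, and their relation to expression was not tested.

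The question put to these genes was whether their transcripts differed once BARD1 was silenced. Of the 9 supply enzymes, 7 fell (RRM1, RRM2, TYMS, TK1, DUT, DTYMK and DCTD), 1 rose (SAMHD1) and 1 did not pass the test (DCK), in edgeR's quasi-likelihood test at a Benjamini-Hochberg adjusted p under 0.05. The falls ran from a log2 fold change of -0.65 for TYMS to -0.20 for DCTD, which left siBARD1 levels at 63.9% to 87.1% of siSCR. Over all 15287 genes tested, 20% fell and 18.9% rose, so calls in both directions were common in this comparison (3057 and 2889 genes, or 2478 and 3616 with scaling by total count only, where 7 enzymes again fell and 1 rose). The siBARD1 and siSCR libraries did not overlap for 7 of the 9, all lower, where 36.1% of all genes tested showed no overlap in either direction. The median log2 fold change was -0.38 over the 9 genes and 0.0044 over all genes tested, and the genes called lower had a median of -0.36. The enzymes thus moved by sizes common among the genes that fell, and 589 of the 3057 genes called lower fell more steeply than TYMS. In bulk RNA, fewer cells of a kind and less RNA per cell cannot be told apart, and the S-phase share of the cells was not measured.

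BARD1 itself stood at 19.5 ± 2.33 CPM (TMM-scaled count per library size, SD, n = 4) in siSCR and at 2.997 ± 0.40 CPM in siBARD1 (log2 fold change -2.69, SE 0.12, adjusted p = 7.41e-11), so each library went with its label. Totals were 17816547 to 28590710 counts per library, and each supply enzyme had between 516 and 5007 counts in each library. Genes with a count numbered 21953 to 22887 in siSCR and 22979 to 23770 in siBARD1, and mitochondrial transcripts took 1.38% to 2.70% and 2.50% to 3.14% of counts, and the part of these differences in the enzymes' changes was not tested. The first principal component (46.1% of variance) separated the groups, and the second (15.5%) set siSCR replicate 1 apart from the other libraries, at 31.5 against -12.5 to 5.59. Results are therefore also given without both replicate 1 libraries, a choice made after seeing the data. Of the PANC-1 and epithelial markers, 5 of 7 tested were lower in siBARD1 (KRT8, KRT18, KRT19, VIM and SOX9), beside 20% of all genes tested. KRT7 (log2 fold change -0.52, adjusted p = 0.0838) and EPCAM (0.14, adjusted p = 0.281) did not pass in edgeR. The list summed to 7370 to 9340 CPM in siSCR and 4630 to 6010 CPM in siBARD1. CDKN2A, which is deleted in PANC-1, was at 0 in all 8 libraries. Defining markers of other cell types were near or at 0, with CDH5, DCN, LUM, INS and GCG at 0 and summed levels of at most 0.754 CPM for endothelial, 1.84 CPM for leukocyte and 0.293 CPM for acinar and islet lists. COL1A1 alone among 6 fibroblast markers was abundant (101.4 CPM in siSCR and 80.7 CPM in siBARD1, lower), and the part of the epithelial and COL1A1 differences in the enzymes' falls was not tested.

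**Figure D1:**
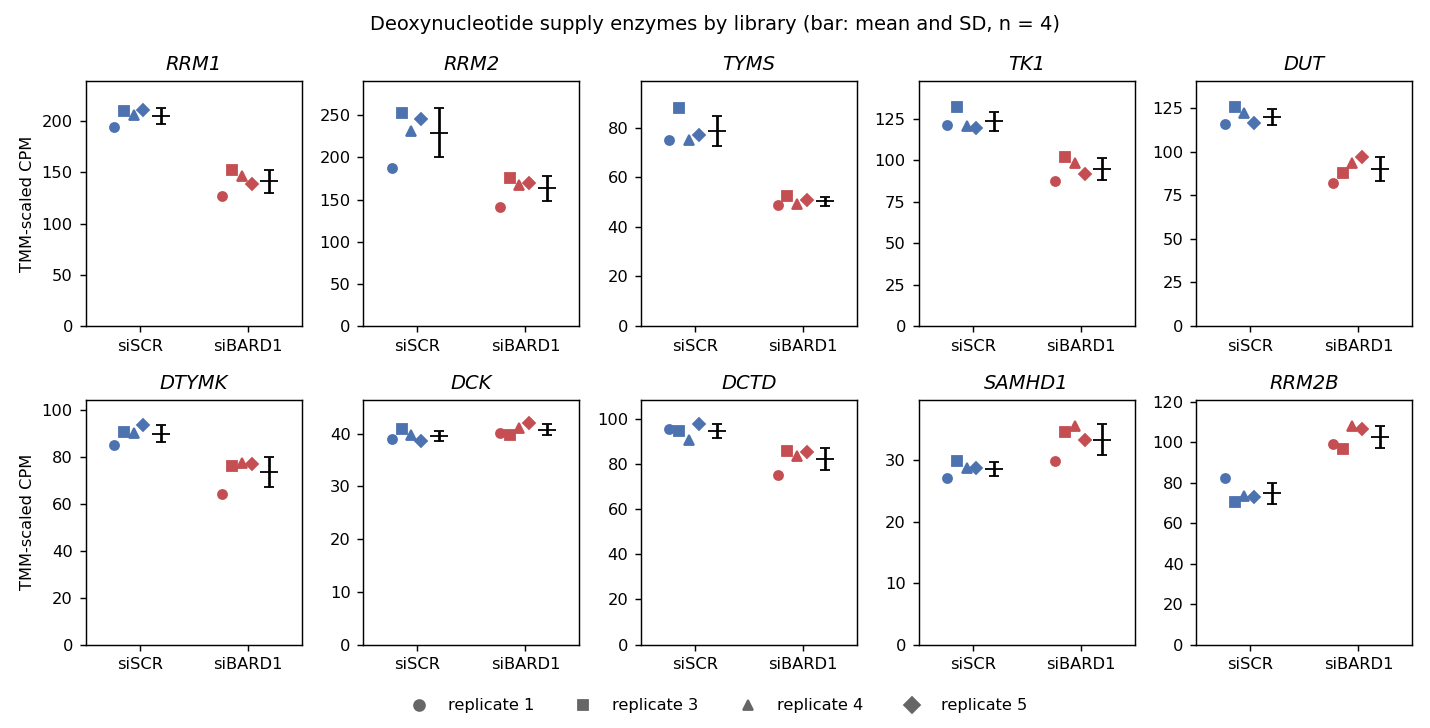
Library-size-scaled level (TMM-scaled CPM, linear axis from 0) of the 9 supply enzymes and of RRM2B in each library, siSCR in blue and siBARD1 in red, with a symbol per replicate number and bars for the mean and SD (n = 4). The red symbols lie below all blue symbols for 7 enzymes, mix with them for DCK, overlap by a single library for SAMHD1 and lie above them for RRM2B.

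Both subunits of the S-phase ribonucleotide reductase fell. RRM1 (chr11:4094707-4138876, ENSG00000167325), the catalytic subunit, stood at 194, 210.4, 205.6 and 211 CPM in siSCR replicates 1, 3, 4 and 5 and at 126.9, 152.5, 146.3 and 138.7 CPM in siBARD1 replicates 1, 3, 4 and 5. The highest siBARD1 library was well below the lowest siSCR library. The means were 205.2 ± 7.89 and 141.1 ± 11 CPM (SD, n = 4 each), a log2 fold change of -0.54 (SE 0.06, adjusted p = 1.27e-06). RRM2 (chr2:10120698-10131419, ENSG00000171848), the subunit that carries the tyrosyl radical, stood at 187.9, 252.4, 231 and 245.9 CPM in siSCR and at 140.9, 175.6, 167 and 169.4 CPM in siBARD1, in the same replicate order. Here siSCR replicate 1 came closest to the siBARD1 libraries, and the gap between the groups was 187.9 against 175.6 CPM. The means were 229.3 ± 29.04 and 163.2 ± 15.3 CPM, with a log2 fold change of -0.49 (SE 0.09, adjusted p = 0.00172), and -0.51 (SE 0.05) without both replicate 1 libraries. RRM2 shared 20.2% of its exonic bases with AC007240.1 on the same strand, and its 3 annotated pseudogenes together had at most 0.277% of its counts in a library.

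RRM2B, the alternative small subunit that p53 induces and that serves cells outside S phase, is not one of the 9 and moved the other way. It stood at 82.3, 70.5, 73.4 and 73.1 CPM in siSCR and at 99.3, 96.7, 107.9 and 106.6 CPM in siBARD1, with no overlap. RRM2B rose by 0.45 on the log2 scale (SE 0.06, adjusted p = 1.1e-05). PANC-1 is known to carry mutant p53.

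The balance within the reductase was compared as the ratio of counts inside each library, which needs no scaling between libraries. Of 6 ratios set for the enzymes, 5 separated the groups without overlap, and each of these had p = 0.0286 in an exact two-sided permutation test, the smallest that 4 against 4 libraries allow (Benjamini-Hochberg adjusted over the 6 ratios, 0.0343). The ratios share genes and pair genes that were also tested singly in these libraries, so the 5 are not separate results. The RRM2 to RRM1 ratio was the exception, at 0.969, 1.20, 1.12 and 1.17 in siSCR and 1.11, 1.15, 1.14 and 1.22 in siBARD1. Its log2 difference was 0.06 (SE 0.07, exact permutation p = 0.6, adjusted 0.6), so no change in the proportion of the transcripts of both subunits was detectable. The RRM2 to RRM2B ratio stood at 2.28, 3.58, 3.15 and 3.36 in siSCR and at 1.42, 1.82, 1.55 and 1.59 in siBARD1. Every siBARD1 library was thus lower, and the geometric mean went from 3.05 to 1.59 (log2 difference -0.94, SE 0.16). With siBARD1 replicate 4 or 5 left out, the adjusted p of the 5 ratios was 0.0571 or 0.0686, and without siBARD1 replicate 1 that of RRM2 to RRM2B was 0.0686.

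**Figure D2:**
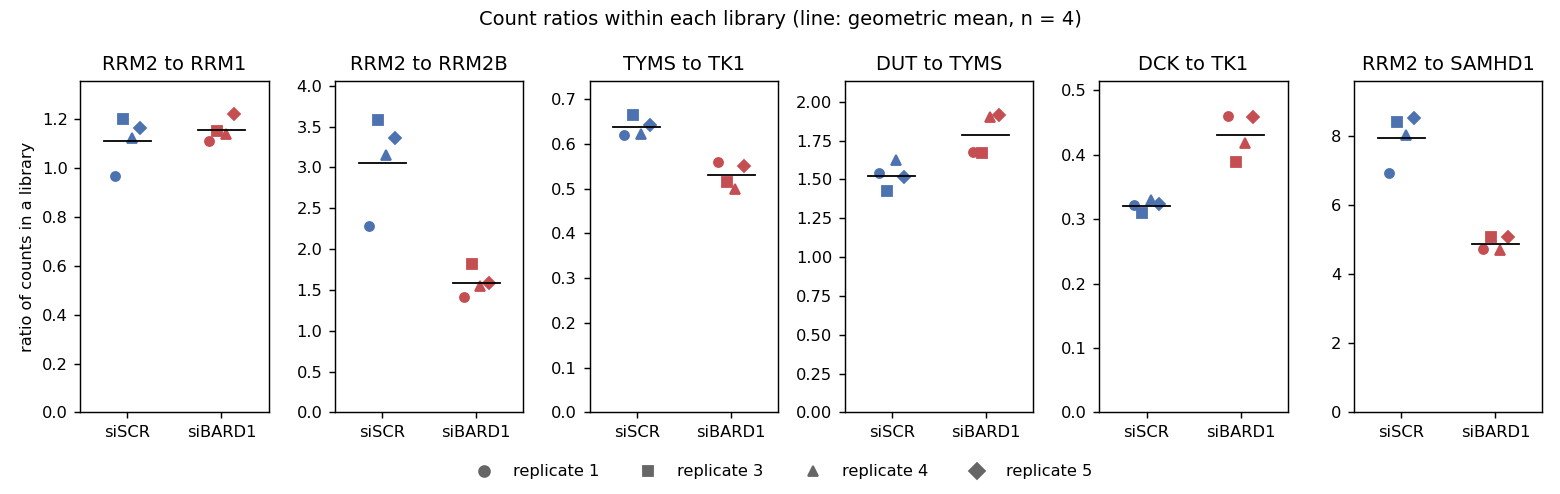
Ratio of counts of the named genes within each library (linear axis from 0, not per length), siSCR in blue and siBARD1 in red, with a symbol per replicate number and a line at the geometric mean of 4 libraries. RRM2 to RRM1 overlaps between the groups, and the other 5 ratios do not.

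Transcripts of all 4 enzymes of the thymidylate route fell, with the largest log2 fold change at the synthase. DCTD (chr4:182890060-182917936, ENSG00000129187), which deaminates dCMP to deoxyuridylate, stood at 95.7, 94.9, 90.8 and 97.8 CPM in siSCR and at 75.4, 85.8, 83.6 and 85.4 CPM in siBARD1. The groups did not overlap, although the fall was the smallest of the 7 (94.8 ± 2.94 to 82.5 ± 4.89 CPM, log2 fold change -0.20, SE 0.05, adjusted p = 0.00653). DUT (chr15:48331011-48343373, ENSG00000128951), which removes dUTP and so keeps uracil out of DNA, stood at 115.7, 125.4, 121.9 and 116.5 CPM in siSCR and at 81.7, 87.7, 93.1 and 97.1 CPM in siBARD1. All siBARD1 libraries were below 100 CPM and all siSCR libraries above it, with a log2 fold change of -0.41 (SE 0.06, adjusted p = 2.13e-05). The 8 annotated DUT pseudogenes together had at most 0.299% of the DUT counts in a library, and 14.5% of the exonic bases of DUT lie opposite AC023355.1.

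TYMS (chr18:657604-673578, ENSG00000176890), the target of fluoropyrimidine drugs, stood at 75.1, 87.9, 75.1 and 77.0 CPM in siSCR and at 48.8, 52.6, 49.0 and 50.7 CPM in siBARD1. The siBARD1 libraries lay close together and siSCR replicate 3 stood above the other siSCR libraries. The means were 78.8 ± 6.13 and 50.3 ± 1.77 CPM, a log2 fold change of -0.65 (SE 0.06, adjusted p = 3.35e-07), the steepest fall and the smallest adjusted p among the 9. Of its exonic bases 46.6% lie opposite ENOSF1 and TYMSOS, whether the counting used strand is not stated, and reads of the overlapping genes may therefore not be told apart. ENOSF1 had a log2 fold change of 0.06 (SE 0.10, adjusted p = 0.693), and TYMSOS, at 2.67 and 1.82 CPM, had -0.55 (SE 0.18, adjusted p = 0.027). DTYMK (chr2:241675742-241686991, ENSG00000168393), the kinase after TYMS, stood at 85.1, 90.7, 90.3 and 93.5 CPM in siSCR and at 64.3, 76.2, 77.2 and 77.0 CPM in siBARD1. Replicate 1 of siBARD1 was the lowest library, and the other 3 siBARD1 libraries were also below every siSCR library (log2 fold change -0.29, SE 0.06, adjusted p = 0.00135).

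Set against DUT and against TK1, TYMS fell more. The DUT to TYMS ratio of counts stood at 1.54, 1.43, 1.62 and 1.51 in siSCR and at 1.68, 1.67, 1.90 and 1.92 in siBARD1 (log2 difference 0.23, SE 0.07), higher in all 4 siBARD1 libraries. The TYMS to TK1 ratio, new synthesis of thymidylate against its salvage, stood at 0.619, 0.665, 0.622 and 0.643 in siSCR and at 0.558, 0.514, 0.50 and 0.552 in siBARD1. All siBARD1 ratios were lower, with a log2 difference of -0.26 (SE 0.05) and the exact permutation p given above. The DUT to TYMS ratio also lost its call without siSCR replicate 3 (adjusted p = 0.103) or siSCR replicate 5 (0.0686).

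The salvage kinases parted. TK1 (chr17:78174075-78187233, ENSG00000167900), which phosphorylates thymidine and is used as a marker of proliferation, stood at 121.2, 132.2, 120.8 and 119.8 CPM in siSCR and at 87.3, 102.3, 98.2 and 92.0 CPM in siBARD1. The highest siBARD1 library was below the lowest siSCR library, and siSCR replicate 3 was above the other siSCR libraries. The log2 fold change was -0.38 (SE 0.06, adjusted p = 5.08e-05). DCK (chr4:70992538-71030914, ENSG00000156136), whose expression is known not to follow S phase closely, stood at 38.9, 40.9, 39.8 and 38.7 CPM in siSCR and at 40.2, 39.7, 41.1 and 42.1 CPM in siBARD1. The groups mixed, the means were 39.6 ± 1.02 and 40.8 ± 1.05 CPM, and no difference was detectable (log2 fold change 0.04, SE 0.06, adjusted p = 0.572). DCK shared 6.17% of its exonic bases with MOB1B on the same strand. The DCK to TK1 ratio of counts was 0.321, 0.310, 0.329 and 0.323 in siSCR and 0.460, 0.388, 0.419 and 0.458 in siBARD1. It was higher in all 4 siBARD1 libraries (log2 difference 0.42, SE 0.06), and this ratio is the test of the difference between the kinases.

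SAMHD1 (chr20:36889773-36951901, ENSG00000101347), the triphosphohydrolase that opposes the reductase, was the only member of the 9 that rose. It stood at 27.1, 29.9, 28.7 and 28.8 CPM in siSCR and at 29.8, 34.6, 35.6 and 33.4 CPM in siBARD1. The lowest siBARD1 library (replicate 1, 29.82 CPM) was just under the highest siSCR library (replicate 3, 29.92 CPM), and the other 3 siBARD1 libraries were above all siSCR libraries. The means were 28.61 ± 1.18 and 33.3 ± 2.50 CPM, a log2 fold change of 0.22 (SE 0.07, adjusted p = 0.0161). The call did not hold without siBARD1 replicate 4 (0.19, adjusted p = 0.0667) or in limma on log2(FPKM + 1) (0.16, adjusted p = 0.0561), and 10.3% of its exonic bases lie opposite TLDC2. The RRM2 to SAMHD1 ratio of counts, synthesis against breakdown, was 6.94, 8.43, 8.05 and 8.54 in siSCR and 4.72, 5.08, 4.69 and 5.07 in siBARD1. Each siBARD1 ratio was below each siSCR ratio (log2 difference -0.70, SE 0.08).

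**Figure D3:**
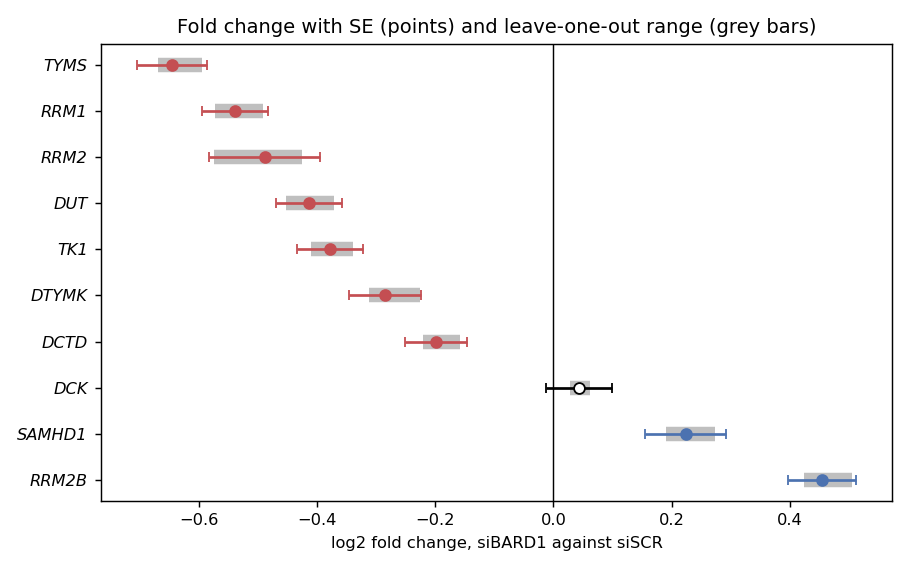
Log2 fold change of siBARD1 against siSCR (x axis) for the 9 supply enzymes and RRM2B, with the edgeR standard error as thin bars, filled where the adjusted p was under 0.05, and grey bars for the range when each of 8 libraries was left out in turn. Falls run from -0.20 (DCTD) to -0.65 (TYMS), DCK lies at 0.04 with an error bar that crosses 0, and SAMHD1 (0.22) and RRM2B (0.45) lie on the other side.

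Levels between genes were compared per length, as the deposited FPKM (fragments scaled to gene length and library total). That length joins all annotated exons of a gene and exceeds single transcripts by unequal amounts. For SAMHD1 it is 11261 bases, where the transcript with the longest 3′ UTR has 4508, and for DTYMK 2451 against 1089. The order and the ranks below therefore hold for this length only, and transcript lengths were not tried. In siSCR the order was TK1 (66.0 ± 3.25 FPKM, SD, n = 4), RRM1 (48.9 ± 1.83), RRM2 (42.9 ± 5.40), DTYMK (36.5 ± 1.36), DUT (32.5 ± 1.30), TYMS (31.7 ± 2.52), DCTD (27.2 ± 0.83), DCK (12.2 ± 0.34) and SAMHD1 (2.53 ± 0.10). RRM1 and RRM2, RRM2 and DTYMK, and DUT and TYMS overlapped between libraries, and the other neighbours did not. TK1 was above 95.6% of protein-coding genes tested, and SAMHD1 above 31.0%. RRM2B, at 13.4 ± 0.94 FPKM, lay between DCTD and DCK.

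In siBARD1 the order was TK1 (50.6 ± 3.62 FPKM), RRM1 (33.5 ± 2.67), RRM2 (30.4 ± 2.88), DTYMK (29.8 ± 2.58), DUT (24.3 ± 1.81), DCTD (23.6 ± 1.41), TYMS (20.2 ± 0.71), DCK (12.5 ± 0.32) and SAMHD1 (2.94 ± 0.23). Each neighbouring pair from RRM1 to DCTD overlapped. The order of the 9 changed at a single place: TYMS was above DCTD in siSCR and below it in siBARD1, and the libraries of the pair did not overlap in either group. RRM2B rose to 18.4 ± 1.0 FPKM and remained below TYMS.

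Deviations within the groups went by library. In siSCR replicate 1, 8 of the 9 were below their group mean (all but DCTD), by a median of 0.07 on the log2 scale, and RRM2 was the lowest at -0.28. In siBARD1 replicate 1 all 9 were below it, with a median of -0.13. In siSCR replicate 3 all 9 were above it, with a median of 0.07. The 6 MCM helicase genes, which are also S-phase genes, were below their group mean in both replicate 1 libraries too (6 of 6 in each, medians -0.14 and -0.15). Without both replicate 1 libraries, 7 enzymes again fell and SAMHD1 rose, with log2 fold changes of -0.65 for TYMS, -0.52 for RRM1, -0.39 for DUT, -0.35 for TK1, -0.25 for DTYMK, -0.15 for DCTD, 0.04 for DCK and 0.25 for SAMHD1.

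**Figure D4:**
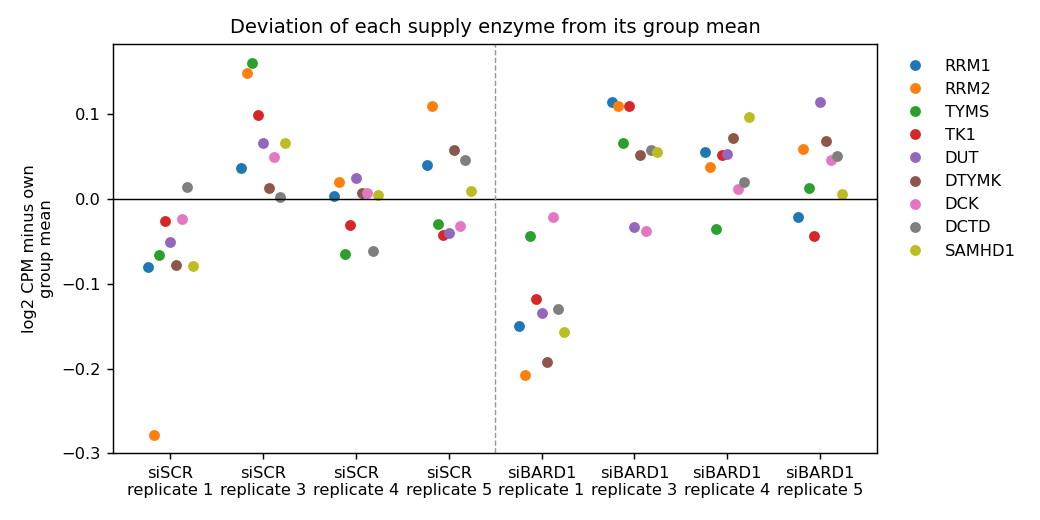
Log2 CPM of each of the 9 supply enzymes minus its own group mean (y axis) in each of the 8 libraries (x axis), with a colour per gene and siSCR left of the dashed line. Points of both replicate 1 libraries lie mostly below 0, with RRM2 in siSCR replicate 1 at -0.28, and all 9 points of siSCR replicate 3 lie above 0.

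Genes whose profiles were nearest were found as the smallest root mean square difference of centred log2 CPM over the 8 libraries, among 10425 protein-coding genes with a mean of at least 5 CPM. The distance includes the difference between the groups, so a near gene changed by a like amount. For RRM1 it was CTPS1, the CTP synthase, at 0.032 (median over all genes 0.299), and CTPS1 also belongs to the nucleotide lists below. For TYMS, the member with the smallest adjusted p, the nearest 3 were UTP4, a ribosome biogenesis factor (0.049), RFC2, a clamp loader subunit (0.052), and NUTF2, a nuclear import factor (0.054), beside a median of 0.343. RRM2 was nearest to EXOSC2 (0.050), TK1 to CCT2 (0.033), DUT to EIF6 (0.031) and DTYMK to TCF19 (0.029). DCK was nearest to RRN3 (0.019), DCTD to COPS6 (0.025) and SAMHD1 to THAP3 (0.025).

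The lists around the 9 enzymes are read against the 20% of all genes tested that fell and the 18.9% that rose. In mitochondrial and p53-inducible supply, 2 of 5 genes fell, 2 rose and 1 did not pass (median log2 fold change -0.07). The mitochondrial thymidine kinase TK2 fell (-0.61, SE 0.09, adjusted p = 3.34e-05), and its exons lie opposite other genes over 21.9% of their bases. The pyrimidine nucleotide carrier SLC25A36 rose (0.61, SE 0.06), and its relative SLC25A33 fell (-0.24, SE 0.06). DGUOK, the mitochondrial deoxyguanosine kinase, did not pass (-0.07, SE 0.07, adjusted p = 0.433).

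Of the kinases that add the next phosphates to the products of the 9, 5 of 12 tested fell, 2 rose and 5 did not pass (median -0.11). The count of 2 higher, near the share of all genes, went to 1 without siSCR replicate 3, 4 or 5 or siBARD1 replicate 4 or 5. CMPK1, the UMP and CMP kinase, which acts on the product of DCK, rose from 137.8 ± 5.69 to 203.8 ± 6.84 CPM (0.57, SE 0.05, adjusted p = 1.02e-07), without overlap. The nucleoside diphosphate kinase NME1 fell (-0.57, SE 0.07), although 18.6% of its exonic bases are shared with the NME1-NME2 readthrough gene. The adenylate kinases AK6 (-0.43, SE 0.06) and AK1 (0.44, SE 0.15, adjusted p = 0.0263) moved apart, with 24.5% and 33.5% of their exons also annotated to a same-strand neighbour, and the AK1 call was lost when any of 6 libraries was left out.

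Of the genes for breakdown, sanitation and transport of nucleosides and nucleotides, 8 of 18 fell (5 with scaling by total count only), 2 rose and 8 did not pass (median -0.16). Purine nucleoside phosphorylase (PNP), whose loss in people raises dGTP in T cells, fell from 28.1 ± 3.64 to 11.8 ± 1.08 CPM (-1.25, SE 0.10, adjusted p = 4.06e-08). SLC29A1, the main equilibrative nucleoside transporter and the entry route of gemcitabine, fell from 328.5 ± 6.20 to 213 ± 8.09 CPM (-0.63, SE 0.04, adjusted p = 1.55e-08). Its relative SLC29A2 rose (0.21, SE 0.06, adjusted p = 0.0121), as did the mitochondrial deoxyribonucleotidase NT5M (0.46, SE 0.11, adjusted p = 0.00386).

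The folate cycle gives TYMS its methyl donor, and 9 of 17 genes tested fell, 3 rose and 5 did not pass (median -0.18). ALDH1L2, a mitochondrial formyltetrahydrofolate dehydrogenase, rose (0.45, SE 0.12, adjusted p = 0.0134). Of 9 genes of pyrimidine synthesis and salvage, 3 fell (5 without siSCR replicate 1) and 6 did not pass (median -0.11). Those that fell were UMPS, CTPS1 at -0.54 (SE 0.06) and DHODH at -0.22 (SE 0.08, adjusted p = 0.0453), a call lost in 12 of 20 alternatives. The salvage genes UCK1, UCK2, UCKL1 and UPRT did not pass, nor did the synthesis genes CAD and CTPS2. Of 16 genes of purine synthesis and salvage, 10 fell, 2 rose and 4 did not pass (median -0.19). GMPS was at -0.48 (SE 0.05), GART at -0.42 (SE 0.04), IMPDH1 at 0.33 (SE 0.05) and ADSSL1 at 0.43 (SE 0.12). The salvage genes HPRT1 and APRT fell and ADK did not pass.

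**Figure D5:**
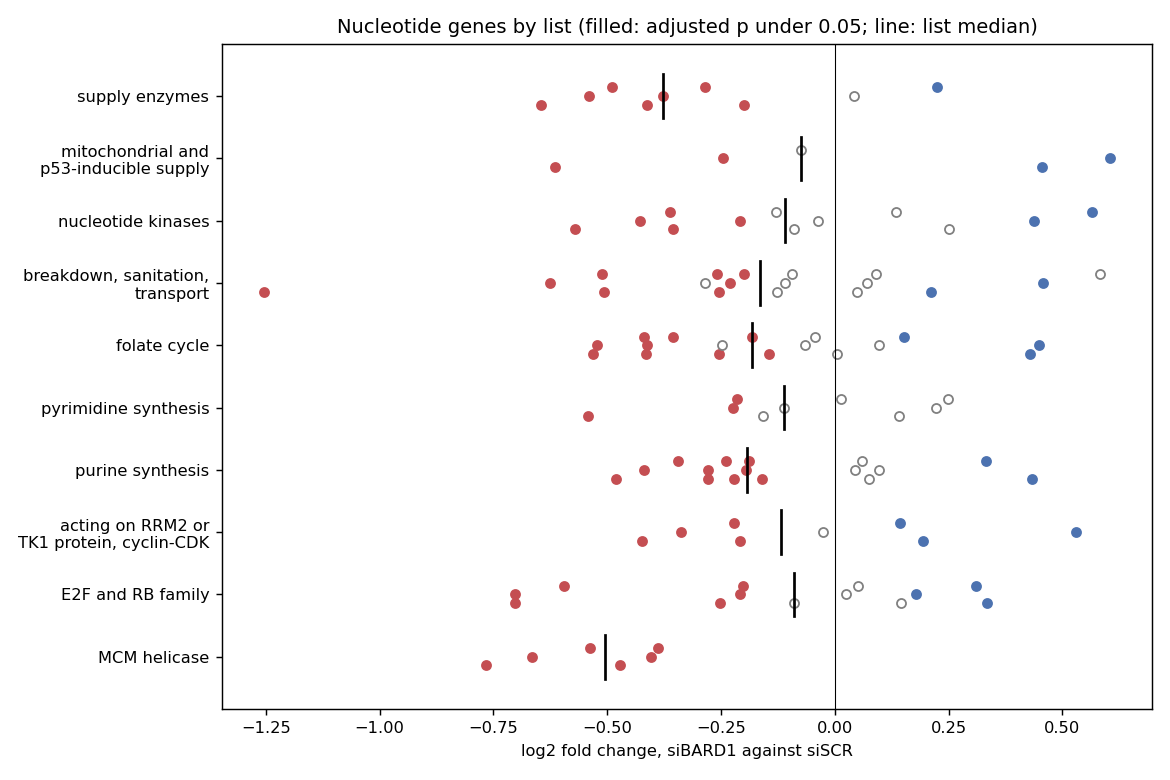
Log2 fold change of siBARD1 against siSCR (x axis) for each gene tested in the supply enzymes and 9 lists around them (rows), filled red where lower and blue where higher at an adjusted p under 0.05, open where not passed, with a bar at each list's median. The supply enzymes' median lies at -0.38 and that of the MCM helicase at -0.50, and the other 8 lists lie between -0.19 and -0.07. The pyrimidine and purine rows also hold salvage genes.

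Regulators of these enzymes were read last. Of 8 genes listed as acting on the reductase or on TK1 protein, or as cyclin and CDK genes, 4 fell, 3 rose and 1 did not pass (median -0.12). Without siBARD1 replicate 3, 1 rose. CCNF, the F-box protein that marks RRM2 for destruction, had 0.19 (SE 0.06, adjusted p = 0.0175, or 0.0673 without siBARD1 replicate 3), and SKP2 rose (0.53, SE 0.06). CDC20 (-0.42, SE 0.06) and CDK2 (-0.34, SE 0.06) fell. Of 13 E2F and RB family genes, 6 fell, 3 rose and 4 did not pass (median -0.09), with E2F2 and E2F8 both at -0.70 (SE 0.11 each), RBL2 at 0.33 (SE 0.05) and E2F7 at 0.31 (SE 0.10, adjusted p = 0.0201). The 3 higher went to 1 without siSCR replicate 3. The E2F7 call was lost without siSCR replicate 3 or 5 or siBARD1 replicate 3 or 4 (adjusted p = 0.0549 to 0.0737). E2F1, an activator of RRM1, TYMS and TK1 that was singled out after its values were seen, fell from 79.8 ± 6.77 to 52.7 ± 3.54 CPM (-0.60, SE 0.07, adjusted p = 2.88e-06). All 6 MCM helicase genes fell (median -0.50), led by MCM6 (-0.77, SE 0.06) and MCM3 (-0.66, SE 0.08).

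The 7-base sequence CTACCAG, which was common in the 3′ UTRs of the genes with the steepest falls in these libraries, was absent from the supply enzymes. It occurred in 0 of the 9 genes, searched over their 73 protein-coding transcripts in GENCODE 29, and in 0 of 8 transcripts of RRM2B. Anywhere in the transcript with the longest 3′ UTR, 23.9% of 12689 coding genes searched held a copy. Transcripts of a gene share sequence, so they are not separate observations. By comparison, the 3′ UTR held it in 74 of 144 genes with a fall of 2-fold or more (51.4%) and in 9.84% of the other genes searched. These shares describe the same libraries, and most genes lack the sequence, so its absence from 9 genes says little. BARD1, PNP, TK2, GART, DHFR2, E2F3, MCM2 and MCM4, which fell, held a copy in the 3′ UTR. So did NME4, NUDT5 and TFDP2, which did not pass. Of the cell type markers, KRT8, which fell, and PDGFRB, which did not pass, held one there too. Other genes, among them CTPS1, NME1, GMPS, E2F1 and MCM3, fell and held no copy. The part of these copies in the changes was not tested.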

How the data were processed

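RNA of 8 PANC-1 libraries was analysed, 4 siSCR and 4 siBARD1, grouped by their labels. Per the labels' protocols, poly-A RNA was captured and primed at random; strandedness is not stated. The authors deposited whole-number read counts per gene and FPKM values per gene, and their table also gives each gene's length in bases. Per the submitters' processing notes, fastp, HISAT2 (2.0.5) and featureCounts were used and the builds GRCh37 and hg19 are named, yet all 58735 gene identifiers have the starts and ends of GENCODE 29 on GRCh38, which is the build of the gene coordinates printed here. Which build served for alignment is not settled. The deposited FPKM equalled the count over gene length and total count times a constant of 0.970 to 1.03 per library. No library was a duplicate (chi-square per gene 4.26 to 17.7 between libraries of a group).

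Counts were tested with edgeR (4.0.16, R 4.3.3): default filterByExpr, TMM factors, robust quasi-likelihood fitting without covariates and Benjamini-Hochberg adjustment over 15287 genes, threshold 0.05. CPM uses TMM-scaled totals, and SE is the log2 fold change over the square root of F. The fit was tested on simulated data. Ratios are log2 of counts plus 0.5 within a library, compared by exact two-sided permutation of 70 assignments. Totals were 17816547 to 28590710 counts, and the enzymes had 516 to 5007 counts in a library. The error of RRM2, among the most deeply counted of them, was the largest (SE 0.09, and 0.05 without both replicate 1 libraries), so depth alone does not set the precision.

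The members, the lists and the tests were chosen with earlier results of these data known. Named are the 9 enzymes, BARD1, RRM2B, and in each list the 2 members with the largest log2 fold change in each direction among those past the threshold (lists with none past it would give their smallest p); DGUOK, TYMSOS, ENOSF1 and E2F1 were added after their values were seen. Some genes that this rule names are not reported here. For each enzyme the nearest gene is named, and for the enzyme with the smallest adjusted p the nearest 3. Promoter windows are RefSeq's on GRCh38.p14. CTACCAG was searched in GENCODE 29 transcripts, per gene in the transcript with the longest 3′ UTR for the shares.

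The alternatives tried were scaling by RLE, by upper quartile and by total count; no filter and at least 1 CPM in 4 libraries; DESeq2 (1.42.0); limma-voom (limma 3.58.1); limma on log2(FPKM + 1) and log2(FPKM + 0.1); a replicate block; each library left out; an adjusted p under 0.01; for ratios, FPKM and no offset; and, added after seeing the data, both replicate 1 libraries left out.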

Additional observations from a re-analysis of the deposited data

Results flagged for a closer look

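Of 96 groups of 4 libraries examined over the supply enzymes and the other named genes, 5 held a library whose gap to the nearest other library exceeded Dixon's 95% critical value, and chance gives about 1 in 20. TYMS in siSCR replicate 3 stood at 87.86 CPM, where the other siSCR libraries had 75.05 to 77.0 CPM. TK1 in the same library stood at 132.2 CPM, beside 119.8 to 121.2 CPM. DTYMK in siBARD1 replicate 1 stood at 64.27 CPM, beside 76.17 to 77.25 CPM. DHODH in siSCR replicate 3 stood at 18.33 CPM, beside 15.17 to 15.67 CPM. RBL2 in siSCR replicate 5 stood at 47.93 CPM, beside 43.84 to 44.3 CPM. The calls of TYMS, TK1, DTYMK and RBL2 held with that library left out, and the DHODH call did not (log2 fold change -0.17, adjusted p = 0.146).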

How the results depend on the processing

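The count of 7 supply enzymes lower held in all 20 alternatives, and no value that passed its test changed direction. The count of 1 higher went to 0 with an adjusted p under 0.01, with limma on the FPKM scale at either pseudocount (log2(FPKM + 1), log2(FPKM + 0.1)), and without siBARD1 replicate 4 (0 to 1 over the libraries left out; log2 fold change of SAMHD1 with adjusted p = 0.0561, 0.0583 and 0.0667 in the last 3); SAMHD1 had an unadjusted p under 0.05 in edgeR. Genes called ranged from 4103 (adjusted p under 0.01) to 6604 (replicate block), 5124 to 6344 over the libraries left out, and calls in the pathway lists from 62 to 74 over the libraries left out. Log2 differences of ratios over the libraries left out were -1.08 to -0.87 for RRM2 to RRM2B, -0.29 to -0.23 for TYMS to TK1, 0.19 to 0.26 for DUT to TYMS, 0.39 to 0.47 for DCK to TK1, -0.77 to -0.67 for RRM2 to SAMHD1 and -0.01 to 0.09 for RRM2 to RRM1. The adjusted permutation p went up to 0.103 for the 5 ratios where the full set gave 0.0343. With a library left out, fewer assignments are possible and p moves in coarser steps. The differences of the 5 ratios kept their direction. Calls of AK1, DHODH, CCNF and E2F7 were lost in 7, 12, 2 and 5 of 20 alternatives. Pyrimidine synthesis and salvage genes lower were 3, or 5 without siSCR replicate 1, and breakdown genes lower were 8, or 5 with total-count scaling. No scaling moved the median of all genes by more than 0.0476 (log2). Whether equal replicate numbers mark paired libraries is not stated, and these values do not settle it. Deviations of same-numbered libraries correlated weakly (0.139, 0.129, 0.0335 and -0.0323 for replicates 1, 3, 4 and 5), and 2 of 4 correlated best with their own number. In replicate 1 the enzymes lay below their group mean in both groups (8 and 9 of 9), and in replicate 3 mostly above it (9 and 7 of 9). The replicate block called 6604 genes, where the main fit called 5946. With it, 7 enzymes fell and 1 rose, and 71 list genes were called. For the ratios, sign-flip p was 0.125, the smallest possible, for 5 ratios and above it for RRM2 to RRM1.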
